A study of Homo sapiens with 30 samples.

Results

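The 52 genes described here encode enzymes that add or remove methyl and acetyl groups on lysines, chiefly those of histones, together with relatives named with them. They were taken from 27348 genes counted in RUES2 cells, an established human embryonic stem cell line, as every gene whose symbol began with KDM, KMT, HDAC, KAT or SETD followed by a digit and that had at least 10 counts in at least 2 RNA libraries. Of 55 such enzyme genes, HDAC10, KDM4E and KDM5D fell short of that minimum, and 5 antisense or divergent RNA genes named after an enzyme were left out. The members were 17 lysine demethylases (KDM), 8 lysine methyltransferases (KMT), 9 SET domain proteins (SETD), 10 histone deacetylases (HDAC) and 8 lysine acetyltransferases (KAT).

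All cells were RUES2 in TeSR E7 medium with rock inhibitor, and the 16 RNA libraries made 8 groups of 2. Collected at 24 h were untreated cells (E7), cells given 1 µM CPI-203 (E7_CPI), cells given 100 ng/mL Wnt3a (WNT) and cells given both (WNT_CPI). Collected at 48 h were cells without Wnt3a that received 10 ng/mL Activin A on day 2 (E7_ACT), cells given Wnt3a on day 1 and neither factor on day 2 (WNT_E7), cells given Wnt3a and then Activin A (WNT_ACT), and cells given Wnt3a with CPI-203 and then Activin A (WNT_CPI_ACT). The cells are a single line in culture, and the labels do not say whether the 2 replicates were separate cultures, so a p-value here speaks only to how far apart these libraries lie, a spread that may be technical.

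CPI-203 inhibits bromodomain proteins of the BET family, which bind acetylated lysines on histone tails and help RNA polymerase II into elongation. Acetyl groups are set by acetyltransferases and removed by deacetylases. Methyl groups on histone lysines are set mostly by SET domain enzymes and removed by demethylases of the LSD and JmjC families. In embryonic stem cells many developmental genes carry H3K27 methylation, a silencing mark that KDM6A (UTX) and KDM6B (JMJD3) can remove. Wnt3a followed by Activin A drives such cells towards mesendoderm.

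The libraries held 36268324 to 43347733 counts, and 15478 to 16327 genes had at least 10 counts in each. The deposited E7_CPI replicate 1 column was out of step with its own gene names. Taking its values in the row sequence of the table for replicate 2 raised its Spearman correlations with the 15 other libraries from at most 0.00712 in size to 0.954 to 0.986. Read so, both E7_CPI libraries differed by a median chi-square of 0.995 per gene, against 10.1 to 20 in the other 7 groups and 0.455 from sampling alone. They stand apart as a pair far closer than other replicates, though further apart than sampling alone gives. Whether they are separate samples or 2 runs of 1 library cannot be told from the labels. If they are runs of 1 library, E7_CPI holds 1 replicate. The standard errors and p-values of E7_CPI vs E7 with both columns are then too small. All groups share 1 estimate of the spread, so those of the other comparisons may be too small as well. The counts of calls in each comparison, and which members keep theirs in E7_CPI vs E7, are therefore given with and without replicate 1. The labels were checked on BET-responsive genes: HEXIM1 stood at 276.7 to 309.4 CPM (counts relative to TMM-adjusted library totals) in the 4 libraries under CPI-203 at 24 h and at 69.8 to 87.5 CPM in the 4 without. The pluripotency factor POU5F1 was detected in every library (238.0 to 976.1 CPM). Of the fibroblast markers, DCN had no count in any library, and LUM and COL3A1 stayed at or below 0.140 CPM, while THY1 (147.5 to 813.2 CPM), COL1A1 (41.9 to 311.9 CPM) and COL1A2 (60.3 to 199.1 CPM) were present in every library.

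Every member was expressed throughout: the lowest count of any member in any library was 49 and the highest 24957. KDM6B varied most between groups, with a mean of 2.69 ± 0.43 CPM (SD, n = 2) in E7 and 20.1 ± 2.2 CPM (SD, n = 2) in WNT_CPI_ACT, a 7.45-fold span. HDAC9, a class IIa deacetylase, spanned 5.79-fold, KDM6A 4.11-fold, HDAC7 3.83-fold and KAT7 3.39-fold. The median member spanned 1.70-fold; 17 of 52 exceeded 2-fold and 16 stayed under 1.5-fold. At the flat end, the class IIa deacetylase HDAC4 spanned 1.14-fold and SETD3, known as an actin histidine methyltransferase, 1.18-fold.

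KDM6B levels fell into 4 tiers of a pair of groups each. The lowest tier was E7, with 3.002 and 2.388 CPM in replicates 1 and 2, and E7_ACT, with 2.26 and 3.34 CPM. Then came WNT, with 4.88 and 5.43 CPM, and WNT_E7, with 5.43 and 6.09 CPM. Above them lay the groups under CPI-203 at 24 h, with 11.98 and 10.29 CPM in WNT_CPI and 11.9 and 12.3 CPM in E7_CPI. The highest tier was WNT_ACT, with 20.9 and 17.9 CPM, and WNT_CPI_ACT, with 18.5 and 21.6 CPM. Within a tier the groups lay within or next to each other's range, and between tiers no libraries overlapped. KDM6A, which acts on the same histone mark, was ordered differently: its lowest libraries were E7_CPI, with 33.6 and 34.4 CPM, and WNT_CPI, with 48.3 and 38.8 CPM. KDM6A stood at 119 and 100 CPM in E7, 139 and 102 CPM in WNT, 154 and 93.2 CPM in E7_ACT, and 124 and 110 CPM in WNT_E7. In WNT_ACT it was at 189 and 90.6 CPM and in WNT_CPI_ACT at 110 and 57.7 CPM. At 48 h its replicates thus differed widely in the groups given Activin A, and less in WNT_E7. CPM are not scaled for gene length, so levels were compared between groups and not between genes.

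**Figure D1:**
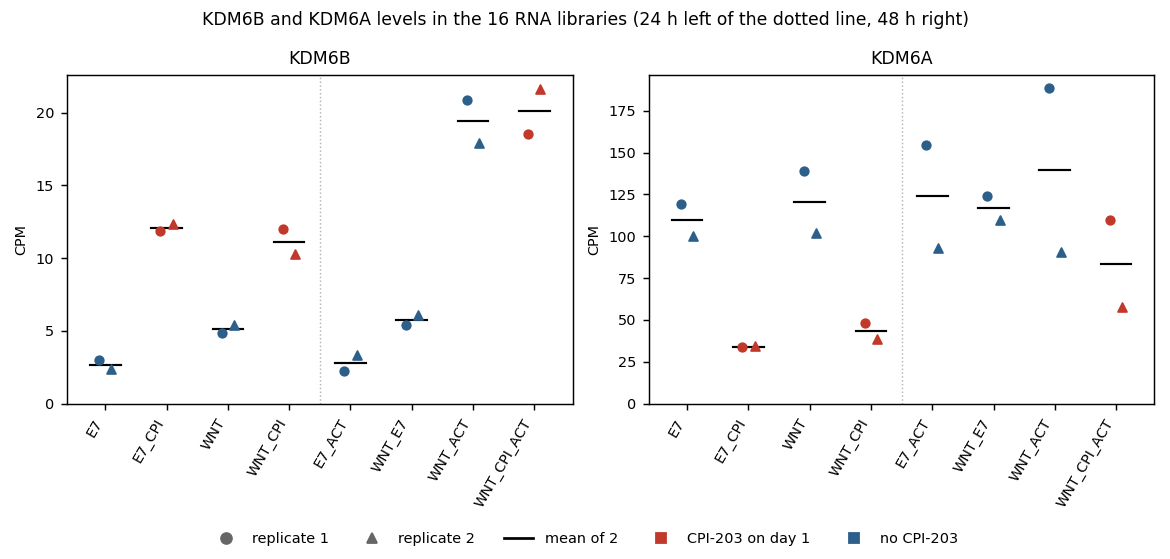
CPM of KDM6B (left) and KDM6A (right) on linear axes from 0, in each of the 16 libraries by group; circles are replicate 1, triangles replicate 2, lines the mean of both, and red marks groups given CPI-203 on day 1. KDM6B is lowest in E7 and E7_ACT and highest in WNT_ACT and WNT_CPI_ACT, while KDM6A is lowest in E7_CPI and WNT_CPI.

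Upstream sequence is shown for 2 members that rose (KDM6B, KDM1B) and 2 that fell (KDM6A, KAT7) under CPI-203 at 24 h, so that their letters can be set side by side. The stretches are the 250 bases before the most upstream RefSeq start of each gene (GRCh38.p14), all on the plus strand: chr17:7833967-7834216 for KDM6B, chr6:18155172-18155421 for KDM1B, chrX:44872938-44873187 for KDM6A and chr17:49788431-49788680 for KAT7. Capitals mark matches, on either strand, to the GC box GGGCGG, the CCAAT box, the E-box CACGTG, and an ETS-type motif, CCGGAAGT.
KDM6B: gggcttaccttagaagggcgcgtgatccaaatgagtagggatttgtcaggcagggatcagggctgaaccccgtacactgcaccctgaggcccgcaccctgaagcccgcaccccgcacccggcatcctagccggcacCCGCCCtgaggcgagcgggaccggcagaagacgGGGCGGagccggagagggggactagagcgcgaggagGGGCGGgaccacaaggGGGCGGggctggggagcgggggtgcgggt
KDM1B: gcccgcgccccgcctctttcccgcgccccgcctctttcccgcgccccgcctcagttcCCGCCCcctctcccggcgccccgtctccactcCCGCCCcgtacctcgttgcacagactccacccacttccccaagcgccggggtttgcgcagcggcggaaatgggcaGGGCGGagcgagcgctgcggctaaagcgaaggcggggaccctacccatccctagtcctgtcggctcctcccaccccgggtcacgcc
KDM6A: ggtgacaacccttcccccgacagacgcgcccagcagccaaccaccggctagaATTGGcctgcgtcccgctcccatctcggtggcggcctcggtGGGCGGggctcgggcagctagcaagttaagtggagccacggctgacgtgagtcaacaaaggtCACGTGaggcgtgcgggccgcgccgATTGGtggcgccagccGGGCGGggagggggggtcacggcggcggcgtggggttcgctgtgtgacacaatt
KAT7: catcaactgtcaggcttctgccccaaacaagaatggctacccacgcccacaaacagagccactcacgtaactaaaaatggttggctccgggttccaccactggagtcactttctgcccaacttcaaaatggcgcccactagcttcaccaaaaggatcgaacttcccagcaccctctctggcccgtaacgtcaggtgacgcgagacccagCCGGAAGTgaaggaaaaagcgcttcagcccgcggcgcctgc
KDM6B held 4 GC boxes, KDM1B 3 and KDM6A 2, and KAT7 none. KDM6A also held 2 CCAAT motifs and 1 E-box, and KAT7 the single ETS-type motif. RefSeq windows were matched for 48 of the 52 members, giving 75 starts; KAT8, SETD1B, KAT6A and HDAC5 had no entry. GC boxes were found in 64% of these 75 stretches and in 42.6% of the 35116 stretches of all genes. CCAAT was in 32% of both, the E-box in 10.7% against 6.34%, and the ETS-type motif in 4% against 3.42%. TATAAA was in 0 of 75 against 10.7% of all stretches, and CTTTGAT (a TCF-type motif) in 0 of 75 against 2.26%. No motif contains another, and a match describes letters and not a bound site. The stretches of all genes came from 27305 genes, expressed or not, whereas every member was expressed. These differences are therefore not read as a trait of the enzymes. A gene with several starts is counted once for each.

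Counts were tested with edgeR's quasi-likelihood F-test in a single fit of the 8 groups, with Benjamini-Hochberg adjustment over 17355 genes. A member was called at an adjusted p under 0.05. Counts of members at an unadjusted p, by DESeq2 or with a library other than E7_CPI replicate 1 left out have no share of all genes beside them. Such counts are not read as a trait of the members, and some unchanged genes reach an unadjusted p under 0.05. Changes are given on the log2 scale, many of them with a standard error (SE). For other modifiers and complex subunits most changes stand without SE or adjusted p, so a value printed there is not by itself a call. The first question was what CPI-203 alone did in E7 medium. It lowered 13 members and raised 5: KDM6B and the LSD-type demethylase KDM1B rose, while HDAC9, HDAC7, KDM6A, KDM2B, KAT7 and SETD1B were among those that fell. The 18 calls were 34.6% of the members, against 32.7% of all genes tested (15% higher and 17.6% lower). The share of members called was thus close to that of genes at large, and their median change was -0.10 against -0.05 over all genes. Without E7_CPI replicate 1, 9 members were called, 2 higher and 7 lower, against 17.5% of all genes.

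Among the LSD demethylases, flavin-dependent enzymes that act on H3K4, KDM1B had 13.15 and 13.02 CPM in E7 and 31.1 and 32.2 CPM in E7_CPI, a rise of 1.27 (SE 0.17, adjusted p = 0.000309). The groups did not overlap. Its relative KDM1A changed by 0.22 (SE 0.10, adjusted p = 0.116).

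Of 15 JmjC demethylases, 2 rose and 4 fell. KDM6B rose by 2.17 (SE 0.22, adjusted p = 6.06e-05). KDM4B, which acts on H3K9, rose by 0.88 (SE 0.23, adjusted p = 0.0155). KDM6A fell by 1.69 (SE 0.39, adjusted p = 0.00711), opposite to KDM6B. KDM2B, a CpG-binding H3K36 demethylase that also recruits a Polycomb complex, went from 170 and 182 CPM in E7 to 69.5 and 73.3 CPM in E7_CPI (-1.30, SE 0.16, adjusted p = 0.000216). KDM4A and KDM4C, relatives of KDM4B with the same histone target, went the other way from it, by -0.75 (SE 0.15, adjusted p = 0.00311) and -0.76 (SE 0.18, adjusted p = 0.00739).

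Among deacetylases, all 4 class I members were called and 3 of them fell. HDAC1, the catalytic subunit of NuRD, SIN3 and CoREST complexes, stood at 126 and 128 CPM in E7 and at 74.4 and 76.9 CPM in E7_CPI (-0.75, SE 0.14, adjusted p = 0.00198). HDAC2, its partner in those complexes, changed by -0.61 and HDAC8 by -0.78 (adjusted p = 0.0128 and 0.0414). HDAC3, the deacetylase of NCoR complexes, was the exception: it stood at 113 and 129 CPM in E7 and 166 and 168 CPM in E7_CPI (0.47, SE 0.15, adjusted p = 0.0367). Of the 4 class IIa members, which have little activity of their own and act largely through bound partners, 2 fell. HDAC9 went from 13.2 and 9.62 CPM in E7 to 2.39 and 2.29 CPM in E7_CPI (-2.29, SE 0.26, adjusted p = 0.000122). HDAC7 went from 95.9 and 102 CPM to 45.6 and 45.5 CPM (-1.12, SE 0.13, adjusted p = 0.00013). In each of HDAC1, HDAC3, HDAC7 and HDAC9 the libraries of E7 and E7_CPI did not overlap.

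Of 5 MYST acetyltransferases, 3 fell and 1 rose. KAT7 (HBO1), an H3K14 acetyltransferase, stood at 220 and 314 CPM in E7 and 112 and 114 CPM in E7_CPI (-1.25, SE 0.27, adjusted p = 0.0057). KAT6B changed by -1.17 (SE 0.33, adjusted p = 0.0201), opposite to its close relative KAT6A, which changed by 0.72 (SE 0.18, adjusted p = 0.0116). KAT5 (TIP60) changed by -0.66 (SE 0.19, adjusted p = 0.0216). SETD1B, an H3K4 methyltransferase of COMPASS complexes, was the single SETD gene of 9 called, at 51.2 and 45.8 CPM in E7 and 23.0 and 24.3 CPM in E7_CPI (-1.04, SE 0.17, adjusted p = 0.00107). Its paralogue SETD1A had an adjusted p above the threshold and lay between 76.6 and 99.6 CPM in all 16 libraries.

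None of the 8 KMT genes was called by edgeR in E7_CPI, with 2 at an unadjusted p under 0.05 and 2 called by DESeq2. KMT2E changed by -1.19 (SE 0.45, adjusted p = 0.0656; 0.0281 by DESeq2) and KMT5B, an H4K20 methyltransferase, by -0.76 (SE 0.27, adjusted p = 0.0522; 0.0287 by DESeq2). The further uncalled members of largest change were KDM7A at -0.81, KDM4D at -0.74 and SETD2, the H3K36 methyltransferase, at -0.68, with SEs of 0.58, 0.33 and 0.68. With the replicate number as a block 30 members passed, against 50.8% of all genes, and without E7_CPI replicate 1 the block gave 26, against 44%. Added by the block were KMT2A at -0.63, HDAC5 at 0.58, SETD4 at -0.58, KDM5A at 0.50, KAT2A at -0.49, KAT8 at 0.45, KDM3A at 0.42, HDAC6 at 0.30, KDM5B at 0.27 and KDM1A at 0.22, besides KMT2E and KMT5B (changes from the fit without the block, adjusted p with it 0.00167 to 0.0406). Of these, KMT2A, HDAC5, SETD4, KAT2A and KDM5B were not called with the block once E7_CPI replicate 1 was left out (adjusted p = 0.362, 0.0911, 0.182, 0.0698 and 0.11). The change of KMT2A with the block went from -0.55 to -0.20 without that library, that of SETD4 from -0.52 to -0.21 and that of HDAC5 from 0.63 to 0.28. Likewise, the uncalled KDM7A went from -0.65 to -0.13, KDM4D from -0.74 to -0.47 and SETD2 from -0.54 to -0.05. KMT2E went from -1.10 to -0.69 and stayed called (adjusted p = 0.00691).

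The 9 members called whichever library of E7 or E7_CPI was left out were KDM6B, KDM1B, HDAC9, KDM2B, KAT7, HDAC7, SETD1B, HDAC1 and KDM4A. The other 9 lost the call without E7_CPI replicate 1 (adjusted p 0.0522 to 0.136). Without E7_CPI replicate 2, the same ones other than KDM4C did so (0.0514 to 0.177). Without E7 replicate 1, the calls of KDM4B, HDAC3, KAT6B, HDAC8, KDM4C, KAT5 and HDAC2 were lost (0.0529 to 0.231), and without E7 replicate 2 those of KAT6A and HDAC3 (0.0616 and 0.0935). The count of called members was then 11 without E7 replicate 1 and 10 without E7_CPI replicate 2.

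**Figure D2:**
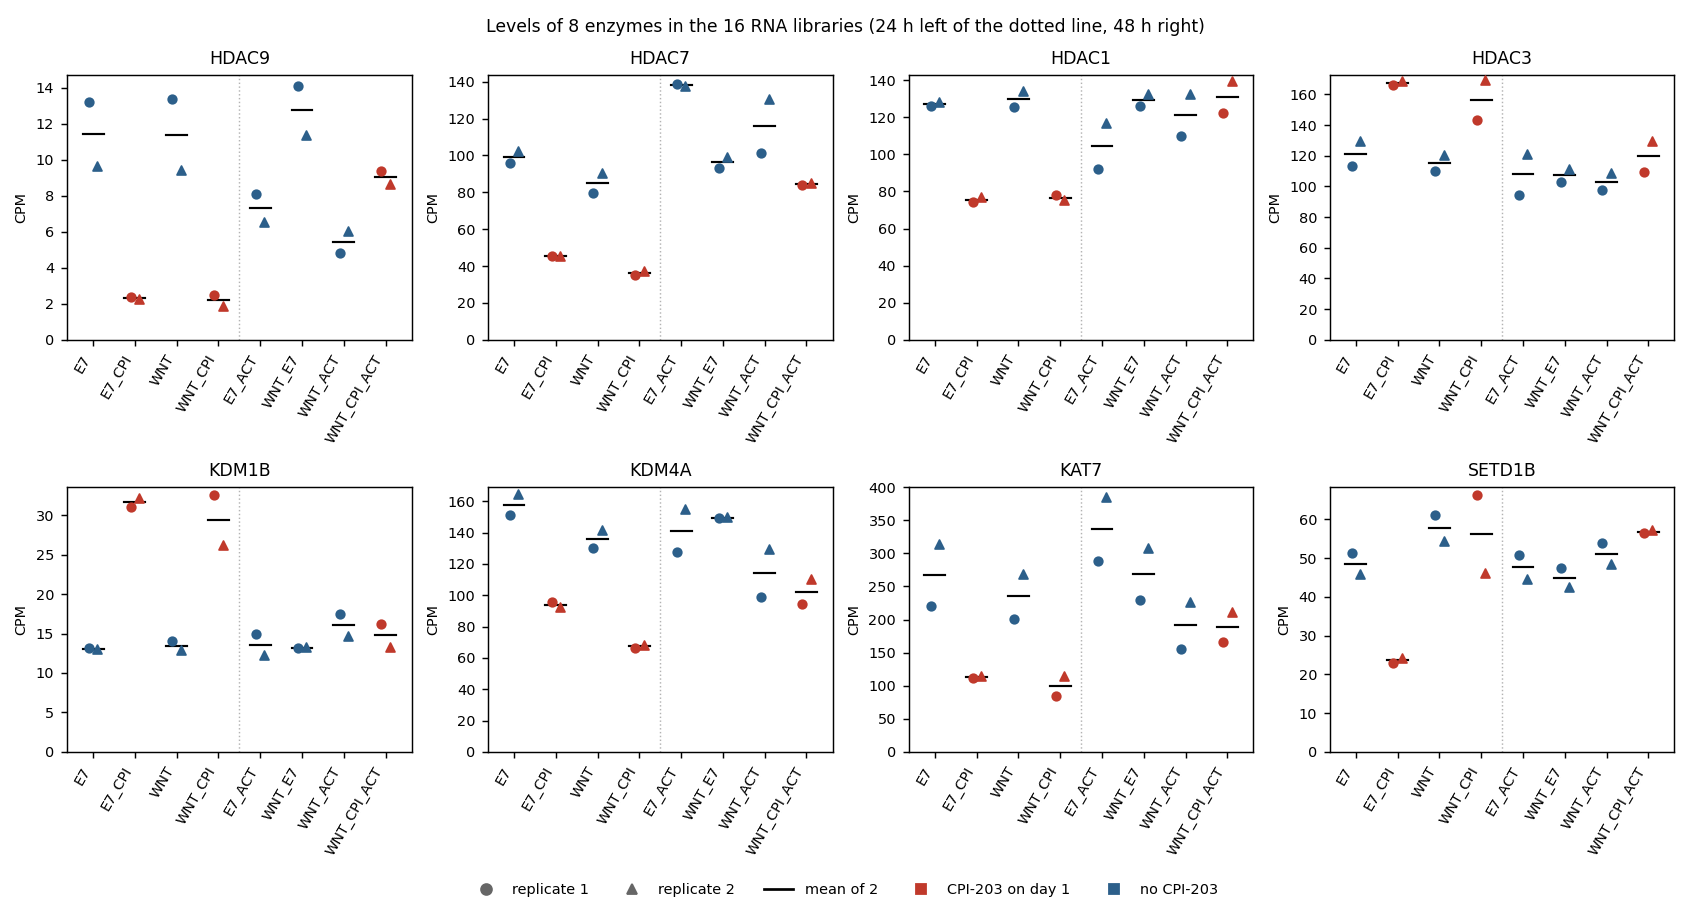
CPM of 8 enzymes on linear axes from 0, in each of the 16 libraries by group; circles are replicate 1, triangles replicate 2, lines the mean of both, and red marks groups given CPI-203 on day 1. HDAC9, HDAC7, HDAC1, KDM4A and KAT7 are lower and HDAC3 and KDM1B higher in both groups under CPI-203 at 24 h, while SETD1B is lower in E7_CPI (23.0 and 24.3 CPM) and not in WNT_CPI (66.3 and 46.1 CPM).

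The second question was what CPI-203 did in cells given Wnt3a at the same time. Here 15 members were called, 4 higher and 11 lower. They made up 28.8% of the members against 31% of all genes (13% higher and 17.9% lower), and the median change was -0.11 against -0.01. HDAC9 had 13.3 and 9.40 CPM in WNT and 2.50 and 1.90 CPM in WNT_CPI (-2.37, SE 0.26, adjusted p = 9.29e-05). HDAC7 had 79.4 and 90.3 CPM in WNT and 34.97 and 37.18 CPM in WNT_CPI (-1.23, SE 0.13, adjusted p = 7.06e-05). HDAC1 had 126 and 134 CPM in WNT and 77.8 and 75.5 CPM in WNT_CPI (-0.76, SE 0.14, adjusted p = 0.00188). In these deacetylases no library of WNT_CPI reached those of WNT.

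KDM6B rose by 1.11 (SE 0.21, adjusted p = 0.00248) and KDM1B, from 14.0 and 12.9 CPM to 32.6 and 26.2 CPM, by 1.13 (SE 0.17, adjusted p = 0.0006). KDM3A, an H3K9 demethylase, had 65.9 and 65.2 CPM in WNT and 108 and 90.0 CPM in WNT_CPI (0.60, SE 0.17, adjusted p = 0.0246). Among the demethylases that fell, KDM4A changed by -1.01 (130 and 142 CPM in WNT, 66.2 and 68.4 CPM in WNT_CPI), KDM4C by -0.93 and KDM2B by -0.88 (adjusted p = 0.000543, 0.0025 and 0.00203). KDM6A changed by -1.47 (SE 0.38, adjusted p = 0.0146) and KDM4D, an H3K9 demethylase, by -1.32 (SE 0.33, adjusted p = 0.0121). KAT7 changed by -1.24 (adjusted p = 0.00599), KAT5 by -0.62 (0.0279) and HDAC2 by -0.50 (0.0327), while HDAC3 rose by 0.44 (0.048). None of the 9 SETD and none of the 8 KMT genes was called by edgeR, with 1 in each class at an unadjusted p under 0.05 and 0 called by DESeq2.

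Calls kept with each WNT or WNT_CPI library left out were those of KDM6B, KDM1B, HDAC9, HDAC7, KDM4A, KDM4C, KDM2B and HDAC1. KDM3A, HDAC3, KDM6A, KDM4D, KAT5 and HDAC2 lost theirs without WNT replicate 1 (adjusted p 0.0557 to 0.218), leaving 9 called members. Without WNT_CPI replicate 1 also 9 were left, with KDM3A, HDAC3, KDM6A, KDM4D, KAT7 and HDAC2 lost (0.0508 to 0.152). KDM3A, HDAC3, KAT5 and HDAC2 were lost without WNT replicate 2 (0.0529 to 0.113), and HDAC3, KDM6A, KAT5 and HDAC2 without WNT_CPI replicate 2 (0.0966 to 0.27). Without E7_CPI replicate 1, which enters only the estimate of the spread here, 13 members were called, against 26.5% of all genes, and HDAC3 and HDAC2 were lost (0.0778 and 0.051). With the block 30 members passed, against 47.4% of all genes, and with the block and without that library 33, against 52.9%. It added KAT6B at -0.93, SETD4 at -0.82, KMT2E at -0.71, KDM5A at 0.54, KDM4B at 0.46, HDAC6 at 0.45, HDAC8 at -0.42, KMT5B at -0.41 and KAT2A at -0.40. It also added KAT6A at 0.39, KMT2D at -0.37, KDM5C at -0.30, SETD1A at -0.27, KDM5B at 0.25 and KDM1A at 0.22 (adjusted p with the block 0.00127 to 0.0411). KMT2C, at 0.48 (SE 0.57), was not called with it.

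**Figure D3:**
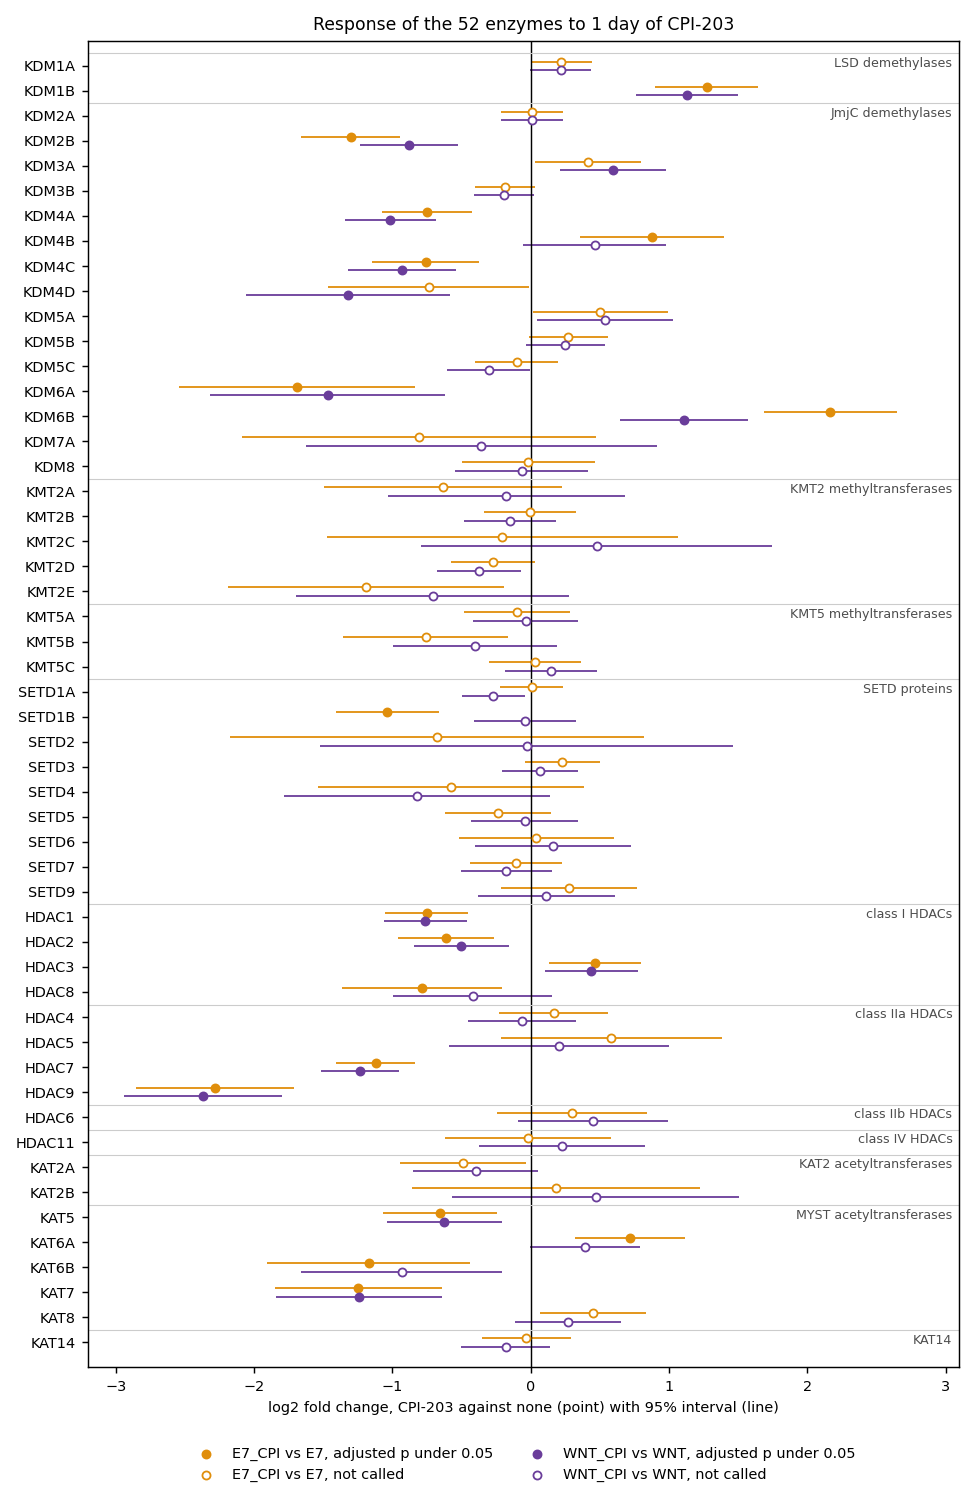
Log2 fold change under 1 day of CPI-203 (point, horizontal axis) with its 95% interval (line) for all 52 members by class, in E7 medium (orange) and with Wnt3a (purple); filled points were called at an adjusted p under 0.05. Calls are 18 in E7 medium and 15 with Wnt3a, and both colours lie on the same side of 0 for each member called in both.

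Both comparisons of CPI-203 at 24 h share no library but are not independent. They come from the same fit, and deviations from group means in E7 and WNT correlated at r = 0.936. They called 13 members in common, all 13 in the same direction: 72.2% of the 18 in E7 medium and 86.7% of the 15 with Wnt3a. Over all genes tested the shares were much the same, with 4323 genes called in both, 76.2% of those called in E7 medium and 80.4% of those called with Wnt3a, and 4320 of them in the same direction. HDAC8, KAT6A, KAT6B, KDM4B and SETD1B were called in E7 medium alone and KDM3A and KDM4D with Wnt3a alone. Called in neither were the demethylases KDM1A, KDM2A, KDM3B, KDM5A, KDM5B, KDM5C, KDM7A and KDM8, the deacetylases HDAC4, HDAC5, HDAC6 and HDAC11, the acetyltransferases KAT2A, KAT2B, KAT8 and KAT14, all 8 KMT genes and every SETD gene but SETD1B. These lists are from the fit without the replicate block. With the block, HDAC8, KAT6A, KAT6B and KDM4B were called with Wnt3a too (adjusted p = 0.0148, 0.0341, 0.00127 and 0.0152). KDM3A was then called in E7 medium too (0.0177). SETD1B stayed called in E7 medium alone and KDM4D with Wnt3a alone. Several members called in neither medium passed with the block, as given above. The difference between media was tested as an interaction, the CPI-203 change in Wnt3a minus that in E7 medium. No member passed with edgeR (0.0115% of all genes did, all of them lower), 2 had an unadjusted p under 0.05 and DESeq2 called 1. The DESeq2 call was SETD1B: it fell in E7 medium, while in Wnt3a it stood at 61.2 and 54.5 CPM without and 66.3 and 46.1 CPM with CPI-203. The difference was 0.99 (SE 0.24, 95% interval 0.47 to 1.52, adjusted p = 0.764 with edgeR and 0.0299 with DESeq2). For KDM6B the difference was -1.05 (SE 0.30, 95% interval -1.71 to -0.40, adjusted p = 0.995), its change being 2.17 in E7 medium and 1.11 in Wnt3a. The next largest were KMT2C at 0.68, SETD2 at 0.65 and KDM4D at -0.58, with SEs of 0.81, 0.96 and 0.46. With the block and without E7_CPI replicate 1, the differences of KMT2C, SETD2 and KDM4D were 0.09, 0.05 and -0.84. Those of SETD1B and KDM6B were then 0.85 and -1.06. The unadjusted intervals of SETD1B and KDM6B lay on one side of 0, and those of KMT2C, SETD2 and KDM4D spanned it. Without E7_CPI replicate 1 edgeR called 0 members, against 0.00562% of all genes. The block also called 0, against 0.127%, or 0.0393% without that library.

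Other markers moved with CPI-203 at 24 h. The 10 pluripotency markers summed to 10080 to 12410 CPM in E7, 8449 to 8727 CPM in E7_CPI, 9917 to 12130 CPM in WNT and 6467 to 7361 CPM in WNT_CPI. Single markers changed unalike. NANOG stood at 71.6 and 112 CPM in E7 and 0.933 and 0.809 CPM in E7_CPI, and TDGF1 at 536 and 897 CPM against 34.6 and 37.4 CPM. PODXL stood higher in E7_CPI (4073 and 4218 CPM, against 2851 and 3274 CPM in E7), as did SOX2 (407 and 420 CPM, against 278 and 355 CPM). Over all genes tested, 17.6% were called lower and 15% higher in E7 medium, and 17.9% and 13% with Wnt3a. Each marker list is short, so its share is coarse. In each medium 7 of the 10 pluripotency markers fell and 0 were called higher. The count in E7 medium was also 7 without E7_CPI replicate 1. Of 7 neuroectoderm markers 3 rose in E7 medium (2 without that library) and 4 with Wnt3a, with sums of 377 to 382.6 CPM in E7, 729.5 to 760.1 CPM in E7_CPI, 297.9 to 324.9 CPM in WNT and 587.9 to 767.7 CPM in WNT_CPI, although the defining marker PAX6 stayed at or below 0.384 CPM in all 16 libraries. These sums are mostly NES, which stood at 308.4 and 316.8 CPM in E7 and 725.4 and 693.9 CPM in E7_CPI. OTX2, the next most abundant of the list in E7, stood at 65.69 and 62.14 CPM in E7 and 29.67 and 30.42 CPM in E7_CPI and was not called (adjusted p = 0.469). With Wnt3a, NES stood at 282.8 and 309.5 CPM in WNT and 758.7 and 572.1 CPM in WNT_CPI, and OTX2, uncalled as well (adjusted p = 0.303), at 12.37 and 12.48 CPM against 1.69 and 6.40 CPM. The 7 trophoblast and amnion markers summed to 3.54 to 3.87 CPM in E7_CPI and 19.1 to 49.7 CPM in WNT_CPI, with 10.8 to 13.8 CPM in E7 and 9.54 to 12 CPM in WNT. Of the 6 tested, 2 rose and 1 fell in E7_CPI (1 and 0 without replicate 1; median change 1.33), and 3 rose and 1 fell in WNT_CPI. The rises were those of TFAP2A and HAND1, joined by CDX2 in WNT_CPI. The fall was that of KRT7, which made up most of the sum in E7 (10.32 and 13.3 CPM, against 1.59 and 1.14 CPM in E7_CPI), and the sum in WNT_CPI was mostly CDX2 (45.99 and 13.26 CPM). The 8 fibroblast markers summed to 631.4 to 893 CPM in E7, 686.1 to 692.4 CPM in E7_CPI, 467.5 to 722.5 CPM in WNT and 379.5 to 487.6 CPM in WNT_CPI. The part of these markers in the enzyme results was not tested. In bulk RNA, fewer cells of a type and less RNA per cell cannot be told apart.

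Wnt3a alone for 1 day was compared with E7 next. No member was called by edgeR, where 0.605% of all genes were (0.484% higher and 0.121% lower); 3 members had an unadjusted p under 0.05, all higher, and DESeq2 called 2. Those were SETD7, a methyltransferase with histone and non-histone targets, and KDM6B. SETD7 had 8.67 and 7.74 CPM in E7 and 13.01 and 13.1 CPM in WNT (0.67, SE 0.15, adjusted p = 0.111). KDM6B changed by 0.93 (SE 0.21, adjusted p = 0.12). Neither overlapped between groups, and both passed with the replicate block (adjusted p = 0.0427 and 0.0495), which called 2 members, against 1.72% of all genes. The next largest changes were SETD4 at 0.70 (SE 0.43), KAT6A at 0.45 (SE 0.18) and KDM7A at 0.37 (SE 0.57). SETD4 passed in the block without E7_CPI replicate 1 (adjusted p = 0.00317), which called 3, against 2.33%. Without that library and without the block 0 were called, against 0.427%.

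At 48 h, the design asks what Wnt3a on day 1 changed in cells given Activin A. Against E7_ACT, WNT_ACT had 2 called members, both higher, or 3.85% against 3.84% of all genes (2.48% higher and 1.36% lower). KDM6B changed by 2.79 (SE 0.22, 95% interval 2.30 to 3.28, adjusted p = 0.000189). SETD7 had 9.38 and 9.17 CPM in E7_ACT and 20.9 and 16.7 CPM in WNT_ACT (1.02, SE 0.15, adjusted p = 0.00575). Both stood clear of E7_ACT in each WNT_ACT library. With the block 4 members passed, against 8.69% of all genes: KAT7 at -0.81 (288 and 386 CPM in E7_ACT, 156 and 227 CPM in WNT_ACT) and KAT6A at 0.51 had adjusted p of 0.165 and 0.2 without it and 0.00123 and 0.0441 with it. Uncalled members of largest change after these were HDAC9 at -0.43, SETD6 at -0.40 and KDM4D at 0.39. Fitted on these 4 libraries alone, KDM6B changed by 2.81 and SETD7 by 1.04 with adjusted p of 0.15 and 0.313, and 0 members were called. Without E7_ACT replicate 1 the adjusted p of SETD7 was 0.0688 and 1 member was left. With E7_CPI replicate 1 left out of the fit, 2 were called, against 2.13% of all genes, or 5 with the block, against 11.4%; the added member was SETD6 (adjusted p = 0.0318).

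Activin A itself, in cells that all had Wnt3a on day 1, was tested as WNT_ACT vs WNT_E7; it shares the WNT_ACT libraries with the comparison above. KDM6B was the single called member (1.75, SE 0.21, adjusted p = 0.0112), with 0.882% of all genes called (0.68% higher and 0.202% lower). HDAC9 had 14.1 and 11.3 CPM in WNT_E7 and 4.84 and 6.04 CPM in WNT_ACT, without overlap (-1.23, SE 0.25, adjusted p = 0.0514 without and 0.00704 with the block). The block called 5 members, against 4.45% of all genes, adding SETD7 at 0.68, KAT7 at -0.49 and KDM4C at -0.48 (adjusted p = 0.0231, 0.0292 and 0.0421). KMT5A, at 0.52 (SE 0.17), was called by neither. Without E7_CPI replicate 1 KDM6B was again the single call (adjusted p = 0.0351), against 0.124% of all genes, and the block then called 7, against 6.35%. The KDM6B call was lost, leaving 0, without WNT_E7 replicate 1 (adjusted p = 0.17) and without WNT_ACT replicate 1 (0.0797), and in a fit of these 4 libraries alone (0.349), while its change stayed between 1.64 and 1.86 with each of the 4 libraries left out. With WNT_ACT replicate 2 left out 2 members were called.

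In WNT_ACT the rise of KDM6B on day 2 went with mesendoderm markers, while in WNT_CPI_ACT KDM6B stood as high with a lower marker sum in each replicate. Of 7 such markers 6 were tested and all 6 rose in WNT_ACT vs E7_ACT, and 2 in WNT_ACT vs WNT_E7; without E7_CPI replicate 1 these counts were 2 and 0. Over all genes tested, with all libraries, 2.48% and 0.68% were called higher in these comparisons. The summed level of the 7 markers was 264.4 CPM in 1 WNT_ACT library and 1547 CPM in the other. It was 4.76 to 7.53 CPM in E7_ACT and 7.09 to 11.0 CPM in WNT_E7. EOMES, a mesendoderm T-box factor, stood at 481.6 CPM in replicate 1 and 83.7 CPM in replicate 2 of WNT_ACT, where KDM6B was at 20.9 and 17.9 CPM. In WNT_CPI_ACT, EOMES stood at 168.3 and 33.4 CPM and KDM6B at 18.5 and 21.6 CPM. The marker sum there was 36.43 to 267.6 CPM, against 30.5 to 48.35 CPM in WNT at 24 h. In replicate 2 of WNT_CPI_ACT, KDM6B was higher than in any other library. TBXT stood there at 0.314 CPM, MIXL1 at 2.44 CPM and FOXA2 at 0.121 CPM, against 30.5, 104.8 and 29.9 CPM in replicate 2 of WNT_ACT. The markers' part in the KDM6B result was not tested.

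The last question was what CPI-203 on day 1 left a day later. In WNT_CPI_ACT vs WNT_ACT no member was called by edgeR, against 5.9% of all genes (1.9% higher and 4% lower); 6 had an unadjusted p under 0.05 and DESeq2 called 3, namely HDAC6, HDAC7 and HDAC9. KDM6B differed by 0.05 (SE 0.20, 95% interval -0.40 to 0.50). HDAC9 had 9.39 and 8.66 CPM in WNT_CPI_ACT and 4.84 and 6.04 CPM in WNT_ACT, so that without overlap it lay above its control on day 2 (0.73, SE 0.25, adjusted p = 0.118). That control was itself low. HDAC9 in WNT_CPI_ACT stayed below WNT_E7, which had neither CPI-203 nor Activin A (14.1 and 11.3 CPM). HDAC6, a deacetylase of tubulin, had 71.95 and 64.02 CPM against 44 and 35.4 CPM (0.78, SE 0.25, adjusted p = 0.1). HDAC7 had 84.2 and 84.8 CPM against 101 and 130 CPM (-0.46, SE 0.13, adjusted p = 0.0624). With the block 7 members passed, against 15.1% of all genes: these 3, KDM6A at -0.74, HDAC5 at -0.62, SETD9 at 0.56 and KAT14, a subunit of the ATAC acetyltransferase complex, at 0.40 (adjusted p with the block 0.00155 to 0.0489). KDM7A differed by -0.68 (SE 0.58) and was not called with it. Without WNT_ACT replicate 1, 1 member was called. Leaving E7_CPI replicate 1 out of the fit, 0 were called, against 3.64% of all genes, or 9 with the block, against 20.2%.

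Whether the CPI-203 effect differed between the days was tested as the change at 48 h minus the change at 24 h, both in cells given Wnt3a, with Activin A in both groups of the later day. Of 52 members 8 differed, 6 upwards and 2 downwards: 15.4%, against 13.3% of all genes (7.73% upwards and 5.6% downwards). HDAC9 differed by 3.1 (SE 0.35, 95% interval 2.32 to 3.88, adjusted p = 0.000467), from -2.37 at 24 h to 0.73 at 48 h. KDM1B differed by -1.25 (SE 0.24, adjusted p = 0.00632), having 17.5 and 14.6 CPM in WNT_ACT and 16.2 and 13.3 CPM in WNT_CPI_ACT. For KDM1B the libraries with and without earlier CPI-203 overlapped on day 2. KDM4D, HDAC1, KDM4A, KDM4C and HDAC7 differed by 1.77, 0.87, 0.85, 0.84 and 0.78, and KDM6B by -1.06 (adjusted p = 0.0359). HDAC1 was at 110 and 133 CPM in WNT_ACT and 122 and 140 CPM in WNT_CPI_ACT, with overlap. The block called 18 members, against 26.9% of all genes, and added KAT7 at 1.22, SETD4 at 1.08, KAT6B at 0.91, HDAC5 at -0.83, KDM2B at 0.63, HDAC8 at 0.58, KAT14 at 0.58, HDAC2 at 0.53, KDM5B at -0.39 and KDM3B at 0.35 (adjusted p with the block 0.00024 to 0.0425). KMT2E, at 0.78 (SE 0.63), was not called with it.

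In this comparison HDAC9 and KDM1B kept their calls with any of the 8 libraries left out. KDM6B lost its call without each of them other than WNT_ACT replicate 2, and KDM4C without each other than WNT_CPI_ACT replicate 2 (adjusted p up to 0.1215 and 0.147). KDM4D was lost without either library of WNT or WNT_CPI, WNT_ACT replicate 2 or WNT_CPI_ACT replicate 2 (up to 0.107). HDAC1 was lost without WNT replicate 2, WNT_CPI replicate 2 or WNT_CPI_ACT replicate 2 (up to 0.0531), KDM4A without these, WNT_CPI replicate 1 or WNT_ACT replicate 1 (up to 0.0758), and HDAC7 without WNT replicate 2 or WNT_CPI replicate 1 (up to 0.0698). The count was 2 without WNT replicate 2, 3 without either WNT_CPI library, 4 without WNT_CPI_ACT replicate 2, and 5 without WNT replicate 1 or WNT_ACT replicate 1. In the fit that lacked E7_CPI replicate 1, 6 members were called, against 10.1% of all genes, with KDM4C and KDM6B lost (0.0745 and 0.0634), and the block then called 23, against 33.3%. A fit of these 8 libraries alone called HDAC9 only (adjusted p = 0.0143).

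**Figure D4:**
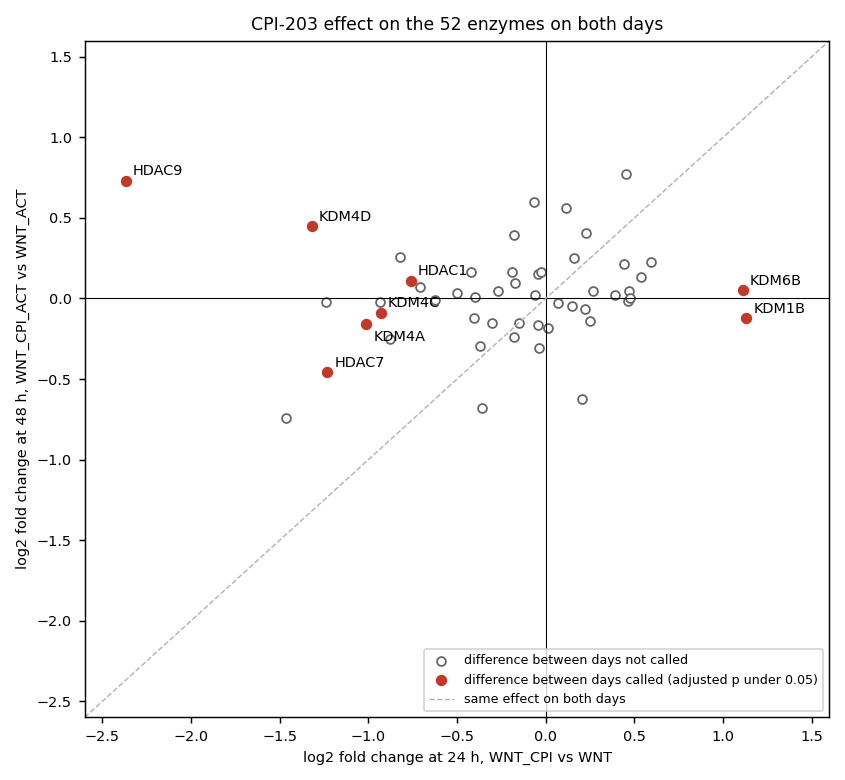
Log2 fold change under CPI-203 at 24 h (horizontal axis, WNT_CPI vs WNT) against that at 48 h (vertical axis, WNT_CPI_ACT vs WNT_ACT) for the 52 members. The comparisons share no library but come from the same fit, and deviations from group means in WNT and WNT_ACT correlated at r = 0.834. Red points are the 8 members whose change differed between days at an adjusted p under 0.05, and the dashed line marks equal change. The red points lie near 0 on the vertical axis, except HDAC9 at 0.73, KDM4D above 0 and HDAC7 at -0.46.

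Members also differed between replicate numbers in a repeated way. Over the 7 groups other than E7_CPI, 31 of 52 members were higher in the same replicate in all 7 groups, 20 in replicate 1 and 11 in replicate 2. They were 59.6% of the members, against 45.4% of all genes tested. The largest shifts were those of SETD2, at a median log2 ratio of replicate 1 to replicate 2 of 1.17, KDM7A at 1.07, KMT2C at 0.96, SETD4 at 0.76, KMT2E at 0.72 and KMT2A at 0.69. HDAC5 at -0.62, KAT7 at -0.42 and KDM4B at -0.40 were shifted the other way. SETD2, for example, had 195 and 80.9 CPM in WNT and 185 and 84.7 CPM in WNT_CPI, so that its replicates differed more than its groups. In 35 of the 52 members the RefSeq gene overlaps another gene, KDM6B, HDAC7, HDAC9 and KAT7 among them, and whether counting used strand is not given in the sources used here, so reads from an overlapping neighbour cannot be told apart; KMT2C, which has near-identical copies elsewhere, is uncertain for the same reason.

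Other writers and erasers outside the symbol rule were read from a list of 36, of which 34 were tested. Listed genes that were not tested are read neither as unchanged nor as unexpressed. Genes on chromosome 22 could not be judged, as 625 of 626 had no count in any library. In E7_CPI vs E7, 7 rose and 5 fell, and in WNT_CPI vs WNT 5 rose and 5 fell. These were 35.3% and 29.4% of the list, close to the 32.7% and 31% of all genes. PHF2, a JmjC demethylase of H3K9, changed by -2.29 and -2.10 in these comparisons, and NSD1, an H3K36 methyltransferase, by -1.37 and -1.24. The acetyltransferase CREBBP changed by -0.55 and -0.68 and the H3K9 methyltransferase SETDB1 by -0.50 and -0.57. The deacetylase SIRT7 rose by 1.05 and 1.24, PRDM2 by 1.03 and 1.04 and SMYD3 by 1.03 and 0.88. SMYD2 was the single gene of this list called in WNT vs E7 (2.21, adjusted p = 0.00027). At 48 h, the change under CPI-203 differed from that at 24 h for PHF2 by 1.75, NSD1 by 1.22, SETDB1 by 0.84 and CREBBP by 0.61, and for SIRT7 by -1.003 and PRDM2 by -0.94. Between the days 6 of the list were called, or 17.6% against 13.3% of all genes. In E7_CPI vs E7, 5 of the list rose and 4 fell when E7_CPI replicate 1 was left out, and those named here with a call in that comparison kept it.

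Of 60 listed subunits of the complexes that hold these enzymes 59 were tested; 9 rose and 14 fell in E7_CPI vs E7, and 5 rose and 13 fell in WNT_CPI vs WNT. These were 39% and 30.5% of the subunits, against 32.7% and 31% of all genes. The first count was 4 and 10 without E7_CPI replicate 1. JADE1 and JADE2, scaffold partners of KAT7, changed by -2.68 and -2.48 in E7 medium and by -2.49 and -3.08 with Wnt3a. MTA3, a NuRD subunit that holds HDAC1 and HDAC2, changed by -2.28 and -2.24, and MTA1 by -0.85 and -1.05. TBL1XR1, a subunit of the HDAC3-containing NCoR complex, changed by -2.51 and -2.78, whereas GPS2 of the same complex rose by 0.93 and 1.06. JARID2, a cofactor of PRC2, which sets H3K27 methylation, changed by -1.16 (not called without E7_CPI replicate 1, adjusted p = 0.0692) and -1.66, and the CoREST subunit RCOR2 by -0.90 and -1.12. Between the days, 9 of these subunits differed upwards and 2 downwards (18.6%, against 13.3% of all genes), among them JADE2 at 2.94, JADE1 at 2.72 and MTA3 at 2.52. The medians of the subunits under CPI-203 were -0.08 in E7 medium and -0.12 with Wnt3a.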

How the data were processed

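RNA counts were analysed for 16 libraries. The deposited values are whole-number read counts for every gene, in a separate table for each replicate number, per the file headers; featureCounts, DESeq2, Bowtie2, MACS2 and deepTools are named in the submitters' processing notes, and the aligner and build of the RNA counts are not given in the sources used here. The tables were joined on gene ID (27348 genes), and gene symbols were taken as deposited. The deposited ATAC peak list, which gives positions only, was not used here. Of 626 genes on chromosome 22, among them HDAC10, 625 had no count in any library. Every row had a gene name.

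Counts were fitted with edgeR 4.0.16 (limma 3.58.1, R 4.3.3): filterByExpr by group, TMM scaling, quasi-likelihood F-test (2-sided), a single group factor, 8 residual degrees of freedom, common biological coefficient of variation 0.271 (0.147 with the replicate block). CPM come from TMM-scaled totals. DESeq2 1.42.0 was an alternative. Replicate numbers paired the samples outside E7_CPI: deviations from group means correlated at r = 0.583 to 0.936 in 21 pairs of groups without E7_CPI and at -0.186 to -0.0476 in 7 with it. Alternatives were the block, other scaling and filters, the compared groups alone and each library left out; those on the E7_CPI columns were chosen after seeing the data. The replicate 1 E7_CPI column correlated with replicate 2 libraries of other groups at 0.906 to 0.992 and with replicate 1 libraries at 0.884 to 0.967.

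The members and lists were chosen with earlier results of these data known. Named were members called (up to 15 per direction), those called with the block and up to 5 uncalled ones of largest change. Y-linked members were given no values.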

Additional observations from a re-analysis of the deposited data

Results flagged for a closer look

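The change under CPI-203 differed between the days, by a test of the difference itself (edgeR, Benjamini-Hochberg adjusted over all genes), in 8 members. The difference, 48 h minus 24 h on the log2 scale, was 3.1 for HDAC9, 1.77 for KDM4D, 0.87 for HDAC1, 0.85 for KDM4A, 0.84 for KDM4C and 0.78 for HDAC7, and -1.25 for KDM1B and -1.06 for KDM6B. Activin A was present in both groups of the later day and in neither of the earlier, so the day, Activin A and the end of CPI-203 exposure cannot be told apart. HEXIM1 and BRD2, which respond to BET inhibition, differed between the days by -1.77 and -0.94. Groups held 2 libraries each, too few to test for a library apart from the others.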

How the results depend on the processing

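No called value changed sign under any alternative run; 6 of the 115 named values, all uncalled, did so with 1 library left out, namely KDM7A in WNT vs E7 (to -0.32 without WNT replicate 1), KMT2C in WNT_CPI vs WNT (to -0.27 without WNT_CPI replicate 1), KMT2C and SETD2 in the interaction (to -0.06 and -0.02 without the same library), and KDM7A and KDM6B in WNT_CPI_ACT vs WNT_ACT (to 0.06 without WNT_ACT replicate 1 and to -0.07 without WNT_CPI_ACT replicate 2). With the replicate block the number of called members was 2 in WNT vs E7, 30 in E7_CPI vs E7, 30 in WNT_CPI vs WNT, 4 in WNT_ACT vs E7_ACT, 5 in WNT_ACT vs WNT_E7, 7 in WNT_CPI_ACT vs WNT_ACT and 18 in the difference between days; the interaction kept 0, and no called member was lost. With the block and without E7_CPI replicate 1 these were 3, 26, 33, 5, 7, 9, 23 and 0. The E7_CPI columns averaged as 1 replicate gave 9 in E7_CPI vs E7. Without E7_CPI replicate 1, 13 were called in WNT_CPI vs WNT and 6 between days. DESeq2 gave 2 in WNT vs E7, 1 in the interaction, 3 in WNT_ACT vs WNT_E7 and 3 in WNT_CPI_ACT vs WNT_ACT. Fits of only the groups compared gave 0 in WNT_ACT vs E7_ACT, 0 in WNT_ACT vs WNT_E7 and 1 in the difference between days, from fewer samples. DESeq2-style size factors gave 2 in WNT_ACT vs WNT_E7. The cause of the other shifts was not tested. With each library left out in turn the counts ran from 9 to 16 (E7_CPI vs E7), 9 to 11 (WNT_CPI vs WNT), 1 to 2 (WNT_ACT vs E7_ACT), 0 to 2 (WNT_ACT vs WNT_E7), 0 to 1 (WNT_CPI_ACT vs WNT_ACT) and 2 to 8 (between days), and stayed at 0 in WNT vs E7 and the interaction. Library totals alone, no filter and a stricter filter left each count within 1.5 times. The number of all genes called stayed within 1.5 times in 18 of the fits with 1 library left out and did not in 28. Shifts in such fits were thus not confined to the members. The 52 members were the same number with a minimum of 5 or 20 counts. Groups of 2 and the E7_CPI pair, whose libraries hardly differ, limit the precision; each member had at least 49 counts in every library.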
